A study of Mus musculus with 16 samples.

Results

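Chromosomes are attached to the spindle by the outer kinetochore, a protein assembly built on centromeric chromatin in mitosis. The MIS12 complex links the inner kinetochore to the outer layer, the NDC80 complex binds microtubules directly, and the SKA complex is loaded onto NDC80-bound microtubules and helps to hold on to their moving ends. Most hematopoietic stem cells (HSCs) are out of cycle at steady state and divide when they rebuild blood after transplantation, and many kinetochore transcripts are made mainly in cycling cells. The 10 genes described here are the 3 SKA genes (Ska1, Ska2 and Ska3), the 4 NDC80 genes (Ndc80, Nuf2, Spc24 and Spc25) and 3 of the MIS12 genes (Dsn1, Mis12 and Nsl1). They were taken by name from a table of 46078 genes, 1 line each, and all 10 are described over the 16 samples. They were chosen by name with measured values in view, namely the counts of SS samples, since Ska1 had been seen to be nearly absent from steady state samples without MAC-1. SS MAC-1- and SS MAC-1low samples are therefore compared for all members as a description, with no test, and Ska1 is not tested in any comparison with SS samples.

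The samples were LSK SLAM HSCs sorted by MAC-1, the integrin of CD11b and CD18, and labelled wild type and B6.SJL strain. Steady state (SS) HSCs came from untreated mice. The 4 week HSCs came from mice 4 weeks after a transplant of 8000 LSK cells following 900 cGy of irradiation. In the paper's transplants, B6.SJL donor cells went into irradiated recipients of another strain, with support marrow of the recipient strain. Donor HSCs were sorted from these recipients, so 4 week and SS HSCs also differ in host. The 5 populations were SS MAC-1- (n = 3), SS MAC-1low (n = 3), 4 week MAC-1- (n = 3), 4 week MAC-1low (n = 4) and 4 week MAC-1+ (n = 3). The labels do not say that replicates came from separate mice, so p-values measure the spread between these samples. Bulk RNA was amplified with SMART-Seq from few cells, and totals ran from 13781278 to 28580658 counts per sample with 14533 to 17576 genes detected. All 8 HSC markers checked, among them Procr, Kit and Slamf1, were detected in every population, with a summed level between 691 and 3457 CPM (counts relative to the library total, scaled by edgeR's TMM factors). In bulk samples fewer cells of a type and less RNA per cell cannot be told apart.

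RefSeq promoter windows were found for 7 of the 10 members (Ska2, Ska3, Ndc80, Nuf2, Spc25, Dsn1 and Mis12), each running from 250 bases before to 50 bases after a gene's start. The 250 bases before the start are shown for Spc25, the member that passed a test below, for Nuf2, a gene of the same complex, and for Ska2, a SKA gene. Capitals mark CCAAT on either strand, the letters of the CCAAT box, and TTTGAA on either strand, the letters of the cell cycle homology region (CHR), where they fall in the stretch. Both motifs are known from promoters of genes expressed in G2 and mitosis.
Spc25 (chr2:69206214-69206463, minus strand): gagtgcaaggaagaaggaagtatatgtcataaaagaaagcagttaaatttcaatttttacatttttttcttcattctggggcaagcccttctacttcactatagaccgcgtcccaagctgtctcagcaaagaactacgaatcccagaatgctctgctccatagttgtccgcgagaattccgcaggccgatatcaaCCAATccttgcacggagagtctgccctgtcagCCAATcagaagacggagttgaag
Nuf2 (chr1:169531465-169531714, minus strand): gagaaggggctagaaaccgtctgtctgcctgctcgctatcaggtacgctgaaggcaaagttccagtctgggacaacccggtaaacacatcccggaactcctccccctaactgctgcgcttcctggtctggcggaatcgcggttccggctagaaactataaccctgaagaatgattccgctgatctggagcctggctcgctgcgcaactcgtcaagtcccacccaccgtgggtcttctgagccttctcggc
Ska2 (chr11:87109011-87109260, plus strand): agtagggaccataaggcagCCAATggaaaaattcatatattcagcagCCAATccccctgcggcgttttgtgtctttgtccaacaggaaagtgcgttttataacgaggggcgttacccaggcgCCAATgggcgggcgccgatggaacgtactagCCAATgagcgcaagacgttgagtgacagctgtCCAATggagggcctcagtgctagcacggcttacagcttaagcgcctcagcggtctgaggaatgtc

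With the start base as position 0, the Spc25 window held CCAAT at positions -55 to -51 and -23 to -19, and TTTGAA at 24 to 29, after the start. The Nuf2 window held neither, and the Ska2 window held CCAAT 5 times and no TTTGAA. The marked stretches do not overlap each other. Over the 7 member windows, TTTGAA was found in 3 (Ska3, Ndc80 and Spc25), or 42.9%, and CCAAT in 3 (Ska2, Spc25 and Mis12), or 42.9%. Spc25 held both. Among all 32851 windows the shares were 17.9% for TTTGAA, 37.4% for CCAAT and 6.95% for both. In the 42 windows of other kinetochore genes they were 40.5%, 71.4% and 35.7%, and in the 17 windows of other G2 and mitosis genes 88.2%, 88.2% and 82.4%. These are matches of letters, given as a description.

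The genes lie on 7 chromosomes in the GRCm38 build (GENCODE M21, matched here by Ensembl identifier). Of the SKA genes, Ska1 (ENSMUSG00000036223) lies on chromosome 18 from 74195299 to 74207818 on the minus strand. Ska2 (ENSMUSG00000020492) lies on chromosome 11 from 87109234 to 87124635 on the plus strand, and Ska3 (ENSMUSG00000021965) on chromosome 14 from 57806561 to 57826185 on the minus strand. The NDC80 genes are all on minus strands, with Ndc80 (ENSMUSG00000024056) on chromosome 17 from 71496100 to 71526857 and Nuf2 (ENSMUSG00000026683) on chromosome 1 from 169497934 to 169531464. Spc24 (ENSMUSG00000074476) is a short gene on chromosome 9 from 21755442 to 21760303, and Spc25 (ENSMUSG00000005233) lies on chromosome 2 from 69193895 to 69206194. Of the MIS12 genes, Dsn1 (ENSMUSG00000027635) is on chromosome 2 from 156995265 to 157007154 on the minus strand. Mis12 (ENSMUSG00000040599) is on chromosome 11 from 71019611 to 71027371 and Nsl1 (ENSMUSG00000062510) on chromosome 1 from 191063012 to 191086474, both on the plus strand. Exons of Mis12 overlap those of Derl2 on the opposite strand over 231 bases, 7.69% of its exon length. Ska3 shares 78 exon bases with Sap18 and Ska2 shares 329 with the antisense gene Gm11491, and over all samples Derl2 held 31988 counts, Sap18 47339 and Gm11491 280. Whether counting used the strand is not given in the sources used here, so in these stretches reads of the partner genes cannot be told apart.

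Levels differed widely between members of the same complex. Per kilobase of exon, mean values over the 16 samples were highest for Spc25 at 109.8 CPM per kb, followed by Ska2 at 34.3, Spc24 at 31.4 and Mis12 at 14.4. Ska1 followed at 10.7 CPM per kb, then Dsn1 at 8.33, Nuf2 at 7.53, Ska3 at 5.72, Ndc80 at 4.99 and Nsl1 at 1.55. Spc25 was above Ska2 in 15 of 16 samples, Spc24 above Mis12 in 15 and Ndc80 above Nsl1 in 13, and these steps divide the order. Between the other neighbours the gene with the higher mean was above in 7 to 11 of 16 samples, so their order was not set beyond the spread. The 4 NDC80 proteins form a complex with 1 copy of each, but RNA levels do not measure protein. Spc25 transcripts were 22.0-fold above those of Ndc80 per kb of exon and higher in 16 of 16 samples. Before scaling by length, the mean levels were 349.9 CPM for Spc25 and 32.4 CPM for Ndc80. Lengths are unions of annotated exons, so a gene whose used transcripts are shorter is underestimated on this scale.

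**Figure D1:**
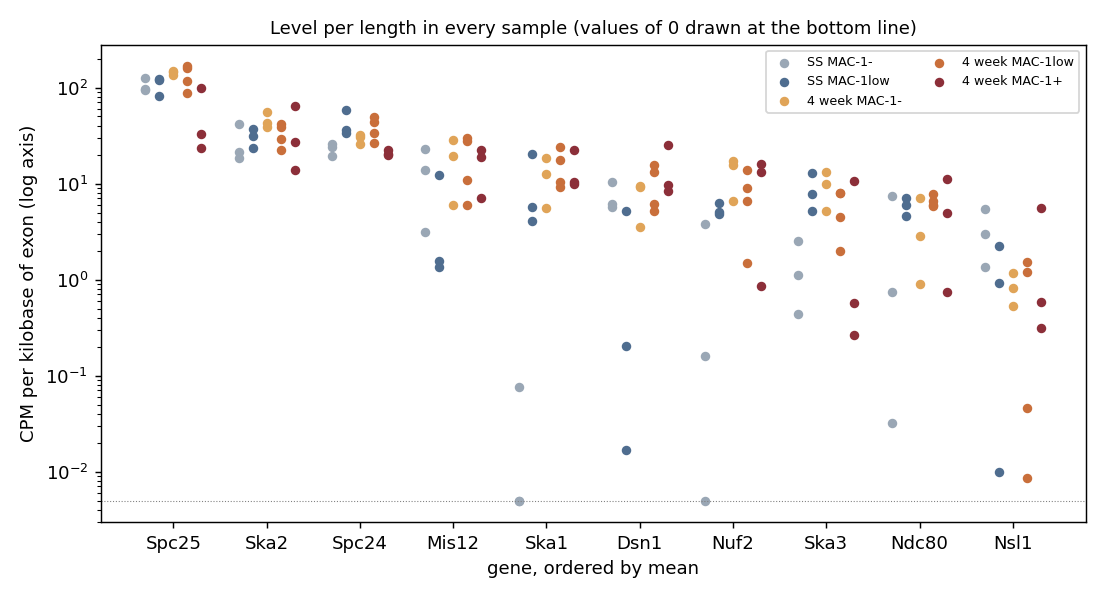
Level per length of the 10 genes in every sample, in CPM per kilobase of exon on a log axis, with genes ordered by their mean over 16 samples and colours for the 5 populations. Spc25 lies above the others, and samples of Ska1, Dsn1, Nuf2, Ndc80 and Nsl1 drop far under the rest, with values of 0 drawn on the dotted line.

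The members also differed in how evenly they were seen. All 10 passed edgeR's filter on low counts. The coefficient of variation over the 16 samples was lowest for Spc24 (0.352), Spc25 (0.372) and Ska2 (0.395). It ran from 0.631 for Ndc80 to 1.13 for Nsl1 in the others. The median was 0.588 over 8163 tested genes within the range of mean counts that the members span. Spc24, Spc25 and Ska2 also had the highest mean counts of the members (1576, 6891 and 2117). No member was compared with genes of its own level. Ska1, Nuf2, Dsn1 and Nsl1 each had a sample with 3 counts or fewer. Such a sample was found for 24.0% of those 8163 genes. In SS MAC-1- replicate 2, Nuf2 had 0 counts and its partner Ndc80 had 4, while Spc25 of the same complex had 5896.

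**Figure D2:**
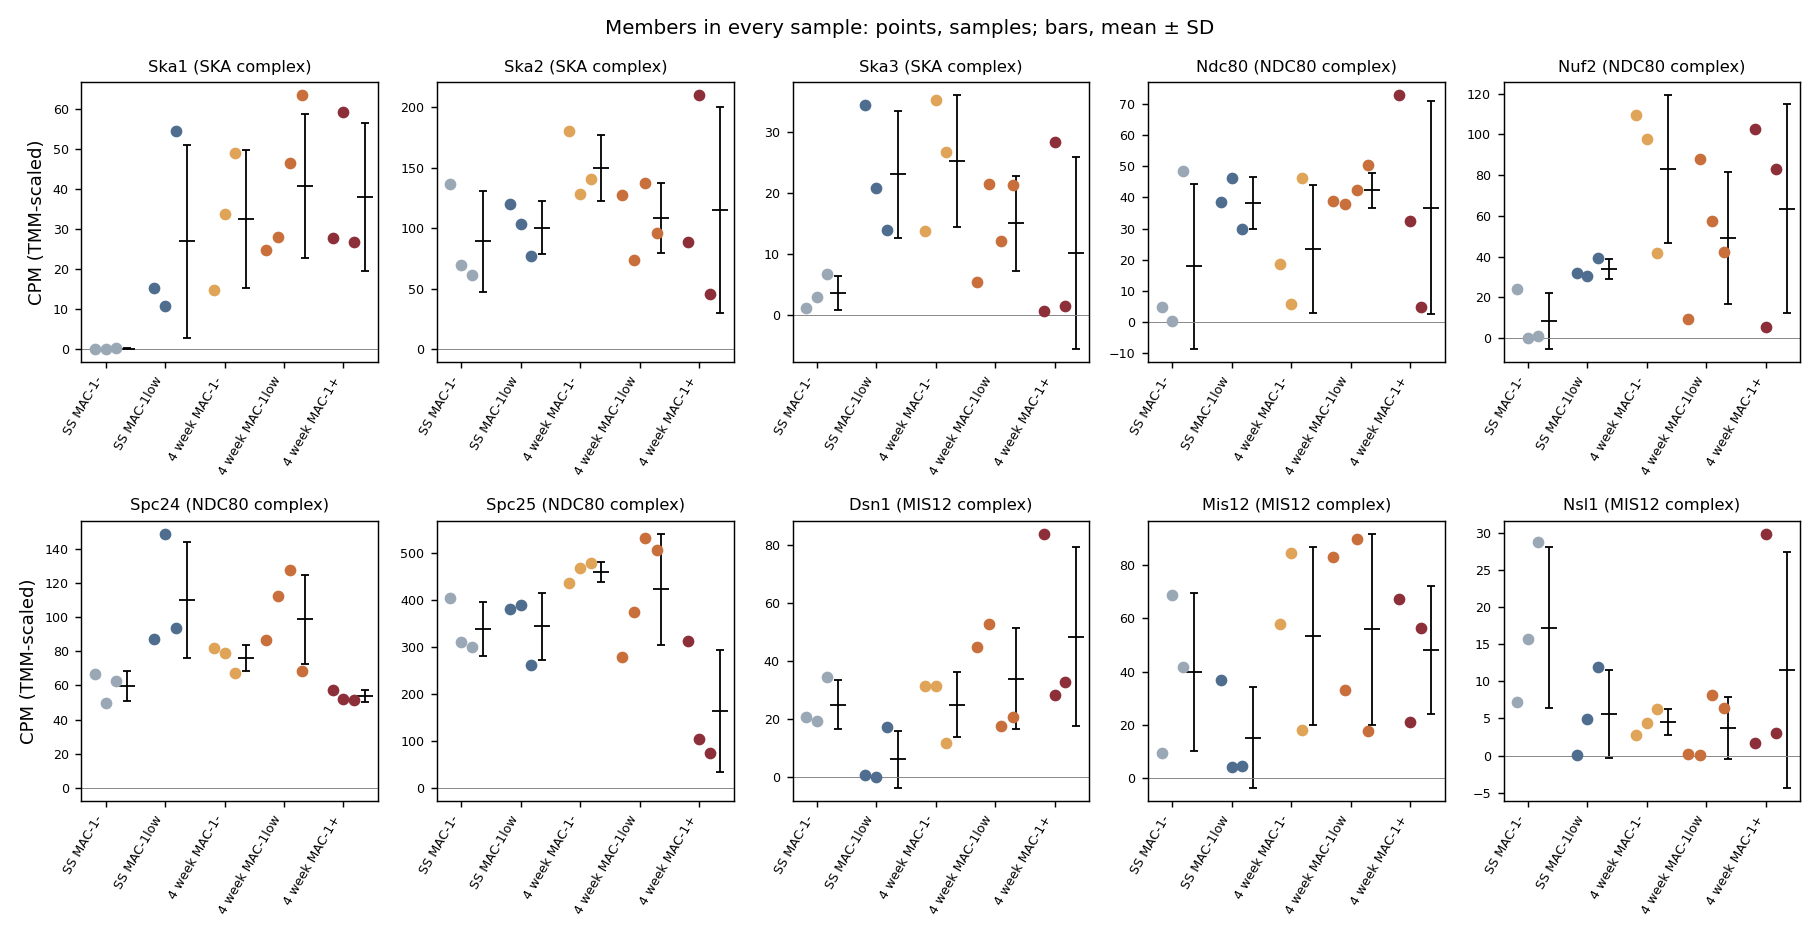
CPM of the 10 genes in each of the 16 samples (points, coloured by population), with mean ± SD as bars at the right of each population. Ska1 lies at or near 0 in the 3 SS MAC-1- samples, and Spc25 is lowest in 4 week MAC-1+ replicates 2 and 3.

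Ska1, the SKA subunit that binds microtubules, separated the SS populations, which is what it was chosen for. Its counts were 0, 0 and 4 in SS MAC-1- samples and 293, 194 and 1058 in SS MAC-1low samples. In CPM these were 0, 0 and 0.205 against 15.3, 10.9 and 54.6, and the 3 counts that a reading of 0 allows correspond to 0.154 to 0.220 CPM in the SS MAC-1- samples. The SS MAC-1- sample with 4 Ska1 counts was also the sample with the most genes detected, 17576. After transplantation the gene was read in every sample, at 14.8, 33.7 and 49.1 CPM in MAC-1-, 24.7, 28.0, 46.6 and 63.6 in MAC-1low and 27.8, 59.4 and 26.7 in MAC-1+ HSCs. Every sample outside SS MAC-1- was at 10.9 CPM or above, and the 4 other populations overlapped each other. In 1057 of 13661 tested genes (7.74%) every SS MAC-1- sample was at 4 counts or fewer, and Ska1 was the 1 gene among them with at least 194 counts in each of the other 13 samples. Both limits are the values of Ska1 itself, so the gene meets them by definition and nothing is read from the count. Stil, with 1, 2 and 27 counts in SS MAC-1- samples and 181 or more in every other sample, falls just outside them.

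Among 4 week samples, which the choice did not use, Ska1 showed no detectable difference. Its log2 fold change was 0.22 (SE 0.88) for MAC-1+ against MAC-1-, 0.32 (SE 0.82) for MAC-1low against MAC-1- and -0.10 (SE 0.82) for MAC-1+ against MAC-1low HSCs. The adjusted p from edgeR's quasi-likelihood test was 0.971, 1 and 1. With these errors a change of the size of the standard error could not have been seen.

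Ska2, a subunit of the coiled-coil core of SKA, was the most evenly expressed SKA gene. It was read at 137, 69.2 and 60.9 CPM in SS MAC-1- and 120.2, 104 and 76.7 CPM in SS MAC-1low samples. At 4 weeks it stood at 181, 128 and 141 CPM in MAC-1-, 127, 73.8, 137 and 95.6 in MAC-1low and 88.2, 210.0 and 45.8 in MAC-1+ samples. The populations overlapped in every comparison, and the highest and the lowest value of the gene were both in 4 week MAC-1+ samples. The mean ratio of SS MAC-1low to SS MAC-1- was 1.13.

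Ska3, the third SKA subunit and a target of the mitotic kinase CDK1, resembled Ska1 in the SS samples. It was read at 1.17, 3.04 and 6.77 CPM in SS MAC-1- and 34.5, 20.9 and 14.1 CPM in SS MAC-1low samples, without overlap and with a mean ratio of 6.33. At 4 weeks its levels were 13.9, 35.4 and 26.7 CPM in MAC-1-, 5.39, 21.5, 12.2 and 21.4 in MAC-1low and 0.712, 28.5 and 1.54 in MAC-1+ HSCs. The MAC-1+ samples were split, with replicate 2 near the highest level of the gene and the other two near its lowest.

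Ndc80, the microtubule-binding subunit that names its complex, varied as much within populations as between them. It was read at 4.84, 0.21 and 48.5 CPM in SS MAC-1- and 38.6, 46.3 and 29.8 CPM in SS MAC-1low samples. At 4 weeks it was at 18.6, 5.88 and 46.1 CPM in MAC-1-, 38.9, 38.0, 42.3 and 50.3 in MAC-1low and 72.9, 32.4 and 4.83 in MAC-1+ samples. MAC-1low samples were even in both states, while the lowest and highest samples of the other 3 populations were at 0.210 and 48.5, at 5.88 and 46.1, and at 4.83 and 72.9 CPM.

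Nuf2, the partner of Ndc80 in the microtubule-binding dimer, did not follow it sample by sample. It was read at 24.4, 0 and 1.03 CPM in SS MAC-1- and 32.1, 30.4 and 39.5 CPM in SS MAC-1low samples, without overlap and with a mean ratio of 4.02. At 4 weeks it stood at 109.6, 97.9 and 41.8 CPM in MAC-1-, 9.50, 87.8, 57.4 and 42.2 in MAC-1low and 103, 5.40 and 82.9 in MAC-1+ samples. In 4 week MAC-1+ replicate 3 Nuf2 was at 82.9 CPM and Ndc80 at 4.83, and in replicate 2 the order was turned.

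Spc24 and Spc25 form the other dimer of the complex, which docks it to the inner kinetochore. Spc24 was read at 66.5, 49.7 and 62.6 CPM in SS MAC-1- and 87.3, 149 and 93.7 CPM in SS MAC-1low samples, without overlap and with a mean ratio of 1.84. At 4 weeks it was at 81.8, 78.7 and 67.2 CPM in MAC-1-, 86.5, 112, 127 and 68.5 in MAC-1low and 57.5, 52.2 and 51.2 in MAC-1+ HSCs. The MAC-1+ samples lay under all other 4 week samples, and they were the most even of the 5 populations, at 53.6 ± 3.39 CPM (SD, n = 3).

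Spc25 was the most abundant member, and the SS populations overlapped, at 404, 309 and 299 CPM in MAC-1- and 381, 388 and 261 CPM in MAC-1low samples (mean ratio 1.02). At 4 weeks it was read at 436, 466 and 477 CPM in MAC-1-, 277, 374, 531 and 504 in MAC-1low and 312, 104 and 74.8 in MAC-1+ HSCs. The MAC-1- samples were close together at 459.5 ± 21.3 CPM (SD, n = 3), and the MAC-1+ samples were lower and wider at 163.9 ± 129.5 CPM (SD, n = 3). MAC-1+ replicate 1, at 312 CPM, lay within the range of the MAC-1low samples, and replicates 2 and 3 were lower than every other sample of the series.

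The 3 MIS12 genes, which tie NDC80 to the inner kinetochore, had lower means in SS MAC-1low than in SS MAC-1- HSCs, opposite to the direction of Ska1. Dsn1 was read at 20.8, 19.3 and 34.6 CPM in SS MAC-1- and 0.678, 0.0559 and 17.3 CPM in SS MAC-1low samples, without overlap and with a mean ratio of 0.242. Mis12 stood at 9.46, 68.7 and 41.6 against 37.0, 4.08 and 4.69 CPM (ratio 0.382), and Nsl1 at 7.19, 15.7 and 28.8 against 0.0522, 4.87 and 11.9 CPM (ratio 0.325), both with overlap. Dsn1 had counts of 13, 1 and 336 in the SS MAC-1low samples, and 1 of these is under the floor of 3 counts.

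At 4 weeks Dsn1 was read at 31.4, 31.2 and 11.8 CPM in MAC-1-, 44.6, 52.6, 17.5 and 20.5 in MAC-1low and 83.8, 28.1 and 32.8 in MAC-1+ samples. Mis12 was at 57.9, 84.5 and 18.1 CPM in MAC-1-, 83.1, 33.0, 89.6 and 17.9 in MAC-1low and 67.0, 21.1 and 56.4 in MAC-1+ samples. Nsl1, the member with the lowest counts, was at 2.82, 4.36 and 6.28 CPM in MAC-1-, at 0.245, 0.0459, 8.18 and 6.33 CPM in MAC-1low and at 1.66, 29.8 and 3.09 CPM in MAC-1+ samples. All 3 genes overlapped between the 4 week populations, and the low Nsl1 values of 4 week MAC-1low replicates 1 and 2 rest on 4 and 1 counts.

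Over the SS populations, then, 4 members (Ska1, Ska3, Nuf2 and Spc24) were higher in every SS MAC-1low sample than in every SS MAC-1- sample, and Dsn1 was lower. Of all tested genes, 5.95% were higher and 5.38% lower in this way. The choice of members used this contrast, and nothing is read from the count.

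The first tested comparison asks how 4 week MAC-1+ HSCs differ from 4 week MAC-1- HSCs. Spc25 fell in MAC-1+ HSCs, with a log2 fold change of -1.49 (SE 0.41, edgeR adjusted p = 0.0894 over all genes, threshold 0.1), and no MAC-1+ sample reached the level of a MAC-1- sample. It was the 1 member of 10 that passed the test, where 3.25% of all genes passed in either direction and 2.06% were lower. Its dimer partner Spc24 was also lower in every MAC-1+ sample, with a log2 fold change of -0.50 (SE 0.31, edgeR adjusted p = 0.542) that did not pass. These 2 of 10 members without overlap compare with 21.7% of all genes in either direction and 11.5% with lower values, so their share was near the background. The other 8 members overlapped, with log2 fold changes from -1.31 (Ska3, SE 1.15) to 1.36 (Nsl1, SE 1.73). Without MAC-1+ replicate 2 the value of Ska3 was -4.45 (edgeR adjusted p = 0.106), without replicate 1 it was -0.76, and in limma-voom it was -3.00. The median over the members was -0.27, and over all tested genes 0.07.

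The call of Spc25 was near the threshold. DESeq2 gave it an adjusted p of 0.0117 and limma-voom 0.0143, where these tools called 9.67% and 6.34% of all genes. In edgeR it was lost with DESeq2's size factors (adjusted p = 0.123) and with only the groups compared (adjusted p = 0.269). The same held with detected genes as covariate (adjusted p = 0.162) and with the replicate block (adjusted p = 0.115). That block joins samples of equal replicate number, and the labels do not say that these share an animal, a sort or a day. The call was also lost in 14 of the 16 fits that left out 1 sample, and kept without 4 week MAC-1low replicate 1 (adjusted p = 0.0882) or 4 week MAC-1+ replicate 1. The value turned most on MAC-1+ replicate 1: without it the log2 fold change was -2.36 (adjusted p = 0.00200), without replicate 2 it was -1.22 (adjusted p = 0.312) and without replicate 3 it was -1.11 (adjusted p = 0.269). Over all alternatives and samples left out, the adjusted p ran from 0.00200 to 0.312 and the fold change stayed negative.

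Markers of other cell types moved with this comparison. The summed level of 7 neutrophil genes ran from 23.1 to 69.7 CPM in 4 week MAC-1- and from 164 to 7255 CPM in 4 week MAC-1+ samples, with 2 of the 7 at 0 in every MAC-1- sample. The 6 megakaryocyte genes summed to between 4251 and 6744 CPM in MAC-1- and between 156 and 198 CPM in MAC-1+ samples, where 1 of them was at 0 in every sample. HSC markers summed to between 691 and 890 CPM in MAC-1- and between 2271 and 3457 CPM in MAC-1+ samples. Erythroblast genes were at 27.2 to 37.0 against 91.5 to 198 CPM, and T and NK cell genes at 323 to 642 against 16 to 176 CPM. Of the 5 T and NK cell genes, 4 were at 0 in every MAC-1- sample and 3 in every MAC-1+ sample. Monocyte and macrophage genes (346 to 580 against 519 to 851 CPM) and B cell genes (10.2 to 35.7 against 15.7 to 119 CPM) overlapped. The part of these differences in the Spc25 result was not tested.

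**Figure D3:**
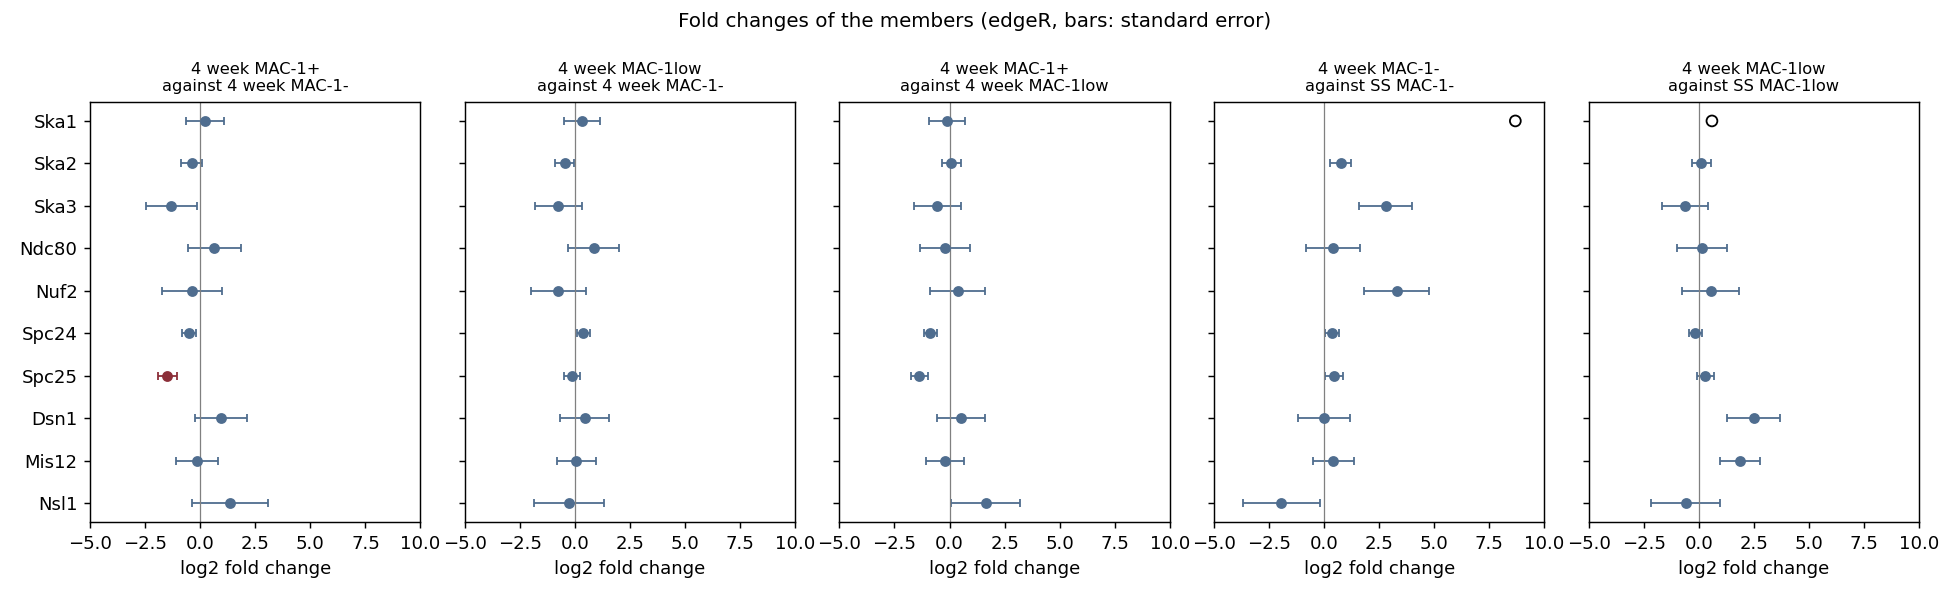
Log2 fold changes of the 10 genes in the 5 comparisons that were fitted, with standard errors as bars; red marks an adjusted p under 0.1 and open circles mark Ska1 where it was not tested, the fitted value against SS MAC-1- resting on 4 counts there. Spc25 is the 1 red point, in the first comparison, and the bars of Ska3, Ndc80, Nuf2, Dsn1, Mis12 and Nsl1 are longer than those of Ska2, Spc24 and Spc25.

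Set against 4 week MAC-1low HSCs, 4 week MAC-1+ HSCs had no called member and no called gene at all in edgeR (0% of 13661 genes, with 936 or 6.85% at an unadjusted p under 0.05). The unadjusted p was under 0.05 for 2 of the 10 members. For Spc24 the log2 fold change was -0.88 (SE 0.30, edgeR adjusted p = 0.626), with the MAC-1+ samples below all MAC-1low samples, as in 4.48% of all genes. For Spc25 it was -1.36 (SE 0.39, edgeR adjusted p = 0.535), with an overlap through MAC-1+ replicate 1. DESeq2 called Spc25 (log2 fold change -1.32, adjusted p = 0.0356), as it did 2.33% of all genes, and limma-voom did not (adjusted p = 0.182, with 0.00732% of all genes called). Without MAC-1+ replicate 1, edgeR also called it, at -2.24 with an adjusted p of 0.0190. This comparison and the first share the MAC-1+ samples. Summed markers also stood apart here, with neutrophil genes at 164 to 7255 CPM in MAC-1+ against 38.4 to 148 CPM in MAC-1low samples and megakaryocyte genes at 156 to 198 against 346 to 868 CPM. Erythroblast genes were at 91.5 to 198 against 36.3 to 76.3 CPM and HSC markers at 2271 to 3457 against 1477 to 2086 CPM, and the other 3 sums overlapped. The part of these differences was not tested.

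In 4 week MAC-1low against 4 week MAC-1- HSCs, 0 of 10 members passed the test in edgeR, DESeq2 or limma-voom, 0 had an unadjusted p under 0.05 in edgeR and 0 were without overlap. Of all genes, 0.278% passed in edgeR, 3.00% in DESeq2 and 2.26% in limma-voom, 7.25% had such an unadjusted p and 10.8% were without overlap. Members' log2 fold changes ran from -0.76 (Nuf2, SE 1.26) to 0.85 (Ndc80, SE 1.15). The narrowest errors were those of Spc24 (0.38, SE 0.30), Spc25 (-0.12, SE 0.38) and Ska2 (-0.47, SE 0.44). Summed markers stood apart in this comparison too, with megakaryocyte genes at 346 to 868 CPM in MAC-1low against 4251 to 6744 CPM in MAC-1- samples. HSC markers were at 1477 to 2086 against 691 to 890 CPM and monocyte and macrophage genes at 643 to 725 against 346 to 580 CPM. The sums of the other cell types overlapped, and the part of these differences was not tested.

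The next comparison sets MAC-1- HSCs at 4 weeks against MAC-1- HSCs at steady state. Of the 9 members tested, 0 passed in edgeR, DESeq2 or limma-voom and 2 (Ska3 and Nuf2) had an unadjusted p under 0.05 in edgeR. Of all genes, 0.432% passed in edgeR, 6.46% in DESeq2 and 0.608% in limma-voom, and 10.4% had such an unadjusted p. Without overlap, 4 of the 9 were higher at 4 weeks (Ska3, Nuf2, Spc24 and Spc25) and 1 was lower (Nsl1), against 9.24% higher and 7.40% lower among all genes. The choice of members had the SS MAC-1- values in view, and nothing is read from this count. Ska3 had a log2 fold change of 2.79 (SE 1.21, edgeR adjusted p = 0.449). Nuf2 had 3.30 (SE 1.48, edgeR adjusted p = 0.459). The fold change of Nuf2 is set against SS samples of 332, 0 and 20 counts. The more abundant Spc24 (0.35, SE 0.31) and Spc25 (0.45, SE 0.40) differed by about their standard errors, and Nsl1 was at -1.94 (SE 1.76). The median of the 9 was 0.42, and over all tested genes -0.03. Markers of other cell types moved here too. Megakaryocyte genes summed to 595 to 1097 CPM in SS and 4251 to 6744 CPM in 4 week MAC-1- samples. The following sums were lower at 4 weeks without overlap, with HSC markers at 1521 to 1763 against 691 to 890 CPM and monocyte and macrophage genes at 697 to 805 against 346 to 580 CPM. Neutrophil genes were at 79.3 to 111 against 23.1 to 69.7 CPM, erythroblast genes at 38.4 to 98.7 against 27.2 to 37.0 CPM and B cell genes at 57.6 to 112 against 10.2 to 35.7 CPM. T and NK cell genes overlapped (242 to 379 against 323 to 642 CPM), and the part of these differences was not tested.

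In 4 week MAC-1low against SS MAC-1low HSCs 0 of 9 members passed in edgeR, DESeq2 or limma-voom, and 0 had an unadjusted p under 0.05 in edgeR. Of all genes, 0.0439% passed in edgeR, 3.79% in DESeq2 and 0.176% in limma-voom, and 8.89% had such an unadjusted p. Dsn1 was higher in every 4 week sample, with a log2 fold change of 2.49 (SE 1.20, edgeR adjusted p = 0.565), as were 5.44% of all genes. The lowest 4 week sample, at 17.48 CPM, was barely above the highest SS sample, at 17.32 CPM. Mis12 had 1.87 (SE 0.93, edgeR adjusted p = 0.573), with overlap. Both values are set against the low SS MAC-1low samples given above, which the choice of members had in view. Spc25 (0.30, SE 0.38), Spc24 (-0.16, SE 0.29) and Ska2 (0.11, SE 0.44) overlapped.

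The other genes of the kinetochore give the setting for these values. The list held 41 genes of the inner kinetochore, centromeric chromatin, the KNL1 group, the checkpoint, the passenger complex and the corona, and all 41 were tested. In 4 week MAC-1+ against MAC-1- HSCs, 2 of 41 passed in edgeR, both lower and both in the inner kinetochore, while DESeq2 called 4, all lower, and limma-voom 5. Of all genes, 3.25% passed in edgeR, 9.67% in DESeq2 and 6.34% in limma-voom. Cenpw, which with Cenpt forms a histone-fold pair at the centromere, was at 573, 477 and 433 CPM in MAC-1- and 189, 192 and 139.6 CPM in MAC-1+ samples and fell by 1.51 on the log2 scale (SE 0.20, edgeR adjusted p = 0.00144). Cenpx, a histone-fold protein of the same layer, was at 312, 314 and 309 against 176, 178 and 157 CPM and fell by 0.87 (SE 0.20, edgeR adjusted p = 0.0386). Fold changes were below 0 in 31 of 41 genes, with a median of -0.54 against 0.07 over all genes.

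Within the inner kinetochore list, 13 of 16 genes had fold changes below 0 (median -0.83) in that comparison. Without overlap, 6 of the 16 were lower, as were 11.5% of all genes. All 5 passenger complex and shugoshin genes and 5 of 6 checkpoint genes were below 0, and 0 of either passed. Knl1, the scaffold that recruits the checkpoint, was at 91.7, 113 and 139.5 CPM in MAC-1- and 11.1, 0.377 and 79.0 CPM in MAC-1+ samples, without overlap (log2 fold change -1.93, SE 0.98, edgeR adjusted p = 0.416). Pmf1, the remaining MIS12 subunit, was at -0.59 (SE 0.64) and Zwint, a Knl1 partner, at -0.27 (SE 0.37). Cenpa, the centromeric histone H3, was at -0.45 (SE 0.47), and Cenpc1 and Cenpt, the inner kinetochore proteins that hold MIS12 and NDC80, were at 0.36 (SE 0.58) and 0.59 (SE 0.85).

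Cenpw passed in further comparisons. In 4 week MAC-1low HSCs, at 215, 315, 249 and 215 CPM, it fell against 4 week MAC-1- by 0.99 (SE 0.18, edgeR adjusted p = 0.0493), as the 1 gene of 41 called in edgeR, where DESeq2 and limma-voom each called 1. Of all genes, 0.278% passed there in edgeR, 3.00% in DESeq2 and 2.26% in limma-voom. Against SS MAC-1- samples, at 225, 234 and 229 CPM, Cenpw rose in 4 week MAC-1- HSCs by 1.11 (SE 0.20, edgeR adjusted p = 0.0423), again as the 1 gene of 41 called in edgeR, where limma-voom called 1 and DESeq2 called 5, all higher. The shares of all genes were 0.432% in edgeR, 0.608% in limma-voom and 6.46% in DESeq2. These 3 comparisons share the 4 week MAC-1- samples. In 4 week MAC-1+ against MAC-1low and in 4 week against SS MAC-1low HSCs, 0 of 41 passed in edgeR, with 6 and 2 genes at an unadjusted p under 0.05. DESeq2 called 1 and 0 genes there, and limma-voom 0 and 0. Of all genes, edgeR called 0% and 0.0439%, DESeq2 2.33% and 3.79% and limma-voom 0.00732% and 0.176%. An unadjusted p under 0.05 in edgeR was found for 6.85% and 8.89% of all genes.

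For 4 week against SS MAC-1- HSCs, 35 of the 41 kinetochore genes had fold changes above 0 (median 0.78), 13 of them without overlap. Among 18 other G2 and mitosis genes, 17 were above 0 (median 1.07) and 9 were higher without overlap, where 9.24% of all genes were higher in this way and the median of all genes was -0.03. None of the 18 passed in edgeR in any of the 5 comparisons, with 8 at an unadjusted p under 0.05 in this comparison (10.4% of all genes) and 1 to 4 in the others (6.85% to 13.4%). DESeq2 called 3 of them here, 2 higher and 1 lower, where it called 6.46% of all genes. Against 4 week MAC-1- HSCs it called 4 in MAC-1+ (1 higher and 3 lower) and 1 in MAC-1low (higher). The shares of all genes were 9.67% and 3.00%. In the other 2 comparisons DESeq2 called 0. limma-voom called 2 of the 18 in 4 week MAC-1+ against MAC-1- HSCs (6.34% of all genes) and 0 in the others. In 4 week against SS MAC-1- HSCs Mki67, a marker of cycling cells, was at 1.10 (SE 0.42, edgeR adjusted p = 0.398) and Cdk1, the mitotic kinase, at 1.16 (SE 0.46, edgeR adjusted p = 0.417). The summed level of the 18 genes ran from 686 to 870 CPM in SS MAC-1-, 1199 to 2065 in SS MAC-1low, 1570 to 1674 in 4 week MAC-1-, 1339 to 1711 in 4 week MAC-1low and 891 to 1291 CPM in 4 week MAC-1+ samples. All SS MAC-1- samples lay under the 13 other samples in this sum, by a narrow margin, with 870 CPM at most against 891 CPM in the lowest 4 week MAC-1+ sample. Ska1 was chosen for its values in these SS samples, and no link of Ska1 to the sum was tested.

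**Figure D4:**
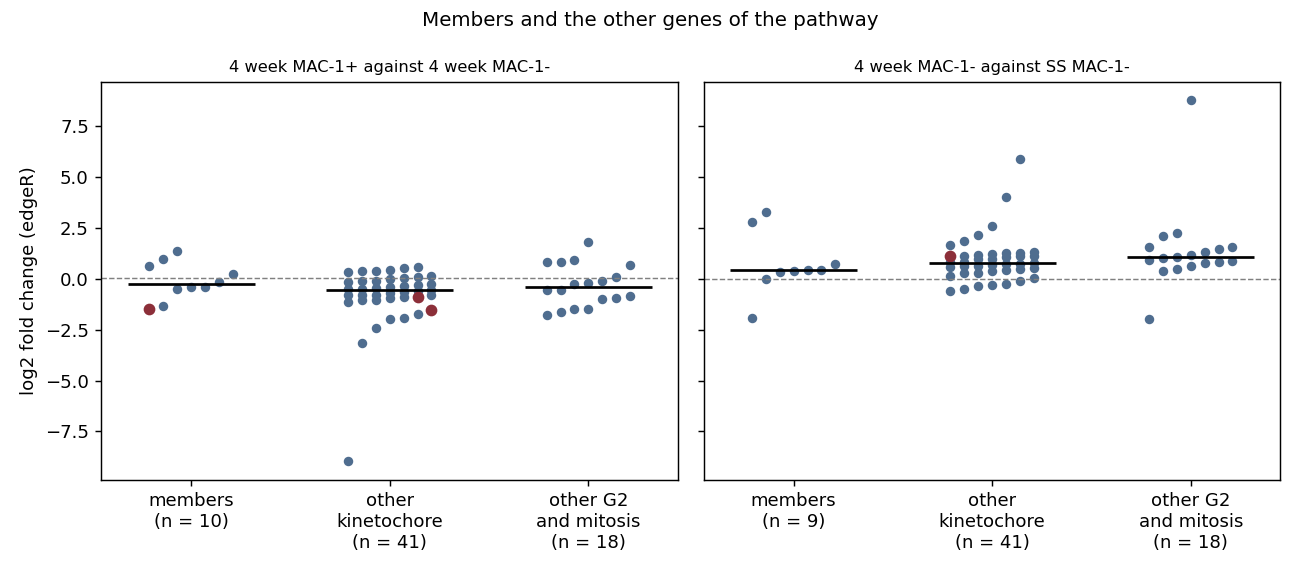
Log2 fold changes of the members, of 41 other kinetochore genes and of 18 other G2 and mitosis genes in 2 comparisons, with list medians as black lines, the median of all tested genes as a dashed line and called genes in red. List medians lie below the dashed line at the left (-0.27, -0.54 and -0.41) and above it at the right (0.42, 0.78 and 1.07).

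Summed over each complex, SKA genes ran from 67.8 to 138 CPM in SS MAC-1-, 135 to 170.0 in SS MAC-1low, 197 to 217 in 4 week MAC-1-, 123 to 196 in 4 week MAC-1low and 74.1 to 298 CPM in 4 week MAC-1+ samples. NDC80 genes, a sum that Spc25 dominates, ran from 359 to 499 CPM in SS MAC-1-, 424 to 614 in SS MAC-1low, 632 to 649 in 4 week MAC-1-, 412 to 758 in 4 week MAC-1low and 194 to 546 CPM in 4 week MAC-1+ samples. MIS12 genes ran from 37.4 to 105 CPM in SS MAC-1-, from 9.01 to 37.7 CPM in SS MAC-1low and from 36.2 to 152 CPM over the 4 week samples.

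Over the 16 samples, the genes whose log2 CPM was most like that of Ska1 were Stil (Pearson r = 0.951), Rcc1 (0.949), Tdg (0.913), Rel (0.913) and Slco3a1 (0.904), among 13651 genes. Stil had 1, 2 and 27 counts and Rcc1 had 1, 1 and 8 counts in the SS MAC-1- samples, so both were low in the same 3 samples as Ska1. Among members, r with Ska1 was 0.68 for Nuf2, 0.60 for Ndc80 and 0.49 for Ska3, and between -0.29 and 0.31 for the other 6. Of the other kinetochore genes Bub1, a checkpoint kinase, came closest at 0.85. Every r with Ska1 includes the 3 SS MAC-1- samples for whose values Ska1 was chosen. Its log2 CPM was -3.29, -3.29 and -1.70 there and 3.45 to 5.99 elsewhere, so r largely reflects which genes were low in those samples. Nothing is read from these values about expression of the genes together. The genes most like the mean standardised level of the 10 members were Zwint (0.827), Hdgf (0.815), AI597479 (0.811), Ccne2 (0.798) and Hspa14 (0.795). Zwint was at 54.2, 86.0 and 68.1 CPM in SS MAC-1- and 138, 121 and 102 CPM in SS MAC-1low samples. At 4 weeks it was at 184, 138 and 150.3 CPM in MAC-1-, 125, 187, 244 and 161 in MAC-1low and 166, 171 and 54.2 in MAC-1+ samples. These correlations describe 16 libraries that share depth, cell input and population, and carry no test. With the member mean itself, r was 0.07 for Dsn1, 0.11 for Mis12 and -0.16 for Nsl1. For the other members it ran from 0.47 (Spc25) to 0.71 (Ska1), and each member is part of that mean. The mean also holds Ska1 with the SS MAC-1- values for which it was chosen, so nothing is read from likeness to it.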

How the data were processed

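Libraries of sorted HSCs fall into 5 populations by their labels. The authors deposited raw counts, whole reads on each gene, from an nf-core run with STAR. For the counter, the build and the annotation, nothing is given in the sources used here. Because SMART-Seq has no molecular identifiers, PCR copies count as reads and counting floors (3 counts for a 0) cover counting error only. The fit used edgeR 4.0.16 under R 4.3.3 (TMM, default filter on low counts, robust quasi-likelihood test, 1 model of all 16 samples with a mean per population). Adjusted p are Benjamini-Hochberg values over all 13661 tested genes, with a threshold of 0.1. CPM are TMM-scaled, and log2 CPM have a prior count of 2. The common biological coefficient of variation was 1.13. Positions and exon lengths are from GENCODE M21 and promoters from RefSeq (GRCm38.p6). Figures come from matplotlib 3.10.9 (Python 3.11.15).

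The members, the lists and the tests were chosen with earlier results of these data known. Named genes are the 10 members, up to 4 called genes of the kinetochore and G2 and mitosis lists per comparison, 8 of their genes picked by role, and the 5 genes most like Ska1 and the 5 most like the member mean. Bub1 was added after its value was seen. Alternatives were DESeq2 1.42.0, weighted limma-voom (limma 3.58.1), size factors from DESeq2, no or a stricter filter, only the groups compared, detected genes as a covariate, a replicate block, thinned counts and leaving out each sample. The 3 tools were also run on simulated counts, drawn around the mean of each gene with known changes in 4 week MAC-1+ samples only. No statement here rests on that run. Deposited columns of no sample numbered 0.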

Additional observations from a re-analysis of the deposited data

How the results depend on the processing

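Between MAC-1+ and MAC-1- HSCs of 4 weeks, the count of called members went from 1 to 0 with DESeq2's size factors in edgeR, with only the groups compared, with detected genes as a covariate and with the replicate block, and ran from 0 to 1 with a sample left out. Between MAC-1+ and MAC-1low HSCs of 4 weeks it was 1 with DESeq2 and ran from 0 to 1 with a sample left out. The cause was not tested, except that fits without a sample or with only the groups compared hold fewer samples. Deviations of same-numbered samples of 1 state correlated with r from -0.001 to 0.040 (median 0.010). For pairs of that state with different numbers, r ran from -0.026 to 0.023 (median -0.0075). The labels do not say which samples share an animal, a sort or a day, so the replicate number may not be the right block. With the replicate block, 0 members were called in each of the 5 comparisons. Of 48 fitted log2 fold changes of members, 24 kept their direction under every alternative and with every sample left out, Spc25 in MAC-1+ against MAC-1- HSCs among them. The sign turned in limma-voom for Mis12 in MAC-1low against MAC-1- (-0.062) and for Ska2 in MAC-1+ against MAC-1low HSCs (-0.32) of 4 weeks, and for Dsn1 in MAC-1- HSCs of 4 weeks against SS (0.034). With detected genes as a covariate it turned against 4 week MAC-1- HSCs for Ska1 (-0.25), Ndc80 (-0.11) and Nuf2 (0.42) in MAC-1+ and for Ska1 (-0.22) and Mis12 (-0.063) in MAC-1low HSCs. With the replicate block it turned in 4 week MAC-1+ against MAC-1low HSCs for Ska1 (0.38), Ska2 (-0.072), Ndc80 (0.041) and Nuf2 (-0.31), between 4 week and SS MAC-1- HSCs for Dsn1 (0.18), and between 4 week and SS MAC-1low HSCs for Ndc80 (-0.068). The log2 fold changes whose sign turned with a sample left out are given as ranges over the 16 such fits. For 4 week MAC-1+ against MAC-1- they were Ska1 -0.23 to 0.65, Ska2 -1.13 to 0.026, Ndc80 -0.34 to 1.58, Nuf2 -0.91 to 0.19, Mis12 -0.56 to 0.35 and Nsl1 -0.89 to 1.87. For 4 week MAC-1low against MAC-1- they were Ska1 -0.023 to 0.75, Spc25 -0.23 to 0.031, Mis12 -0.35 to 0.56 and Nsl1 -0.99 to 0.16. For 4 week MAC-1+ against MAC-1low they were Ska1 -0.58 to 0.20, Ska2 -0.69 to 0.47, Ndc80 -1.19 to 0.32, Nuf2 -0.15 to 0.91, Dsn1 -0.15 to 0.82, Mis12 -0.53 to 0.15 and Nsl1 -0.63 to 2.38. Between 4 week and SS MAC-1- HSCs they were Ndc80 -0.54 to 3.22, Dsn1 -0.21 to 0.33 and Mis12 -0.073 to 1.07. Between 4 week and SS MAC-1low HSCs they were Ska2 -0.071 to 0.25, Ndc80 -0.025 to 0.29, Spc24 -0.32 to 0.11 and Nsl1 -1.34 to 0.57.

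Low counts and wide errors limit what was detectable: Ska1, Nuf2, Dsn1 and Nsl1 had samples at 3 counts or fewer, and standard errors of log2 fold changes reached 1.76. A sample left out moved the fold change of Nuf2 between 4 week and SS MAC-1- HSCs from 2.71 to 7.32, and that of Dsn1 between 4 week and SS MAC-1low HSCs from 1.90 to 6.47, and neither passed in any of these fits. Over all genes, edgeR, DESeq2 and limma-voom called 444, 1321 and 866 in 4 week MAC-1+ against MAC-1- HSCs, and 38, 410 and 309 in 4 week MAC-1low against MAC-1- HSCs. Between 4 week MAC-1+ and MAC-1low HSCs they called 0, 318 and 1. They called 59, 882 and 83 in 4 week against SS MAC-1- and 6, 518 and 24 in 4 week against SS MAC-1low HSCs.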
